A study of Mus musculus with 5 samples.

Results

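The lysosome was followed here through 37 mouse genes for its hydrolases, their cofactors and its membrane proteins, chosen by gene symbol and role with earlier results of these data known. Of these genes, 36 were represented by 50 probes among the 15967 genes named on the arrays, and Ids was not analysed here. The members were grouped by role into 11 genes for cathepsins and legumain, 10 glycosidases, 6 membrane proteins and 10 lipid enzymes, sulfatases and other soluble proteins. Expression was measured with Illumina bead arrays. The cells were F9, an embryonal carcinoma line of the mouse whose cells turn towards extra-embryonic endoderm in retinoic acid. The arrays comprised 3 of cells with a combined knockdown of Sox7 and Sox17 and 2 of control cells, and all 5 carried the same retinoic acid label. The retinoic acid dose, its duration, the means of knockdown and the treatment of the control cells are not stated in the labels. The labels do not say that numbered arrays came from separate cultures, so p-values measure only the spread between these arrays, which may be technical.

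Lysosomes are acidic compartments in which proteases, glycosidases, lipases and sulfatases break down material taken up by endocytosis or delivered by autophagy. Most soluble hydrolases are tagged with mannose 6-phosphate in the Golgi and carried to endosomes by receptors for that tag, while a proton pump, the V-ATPase, keeps the lumen acidic. Visceral endoderm, an extra-embryonic layer, absorbs and digests maternal protein and is rich in endosomes and lysosomes. Many lysosomal genes carry an E-box in their promoters that is bound by the transcription factors Tfeb, Tfe3 and Mitf. Sox7 and Sox17 are related transcription factors of endoderm.

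Both targeted transcripts were lower in the knockdown arrays, as the labels say. The Sox17 probe had intensities of 283, 309 and 243 in knockdown cells, against 1798 and 1732 in control cells. The Sox7 probe had 490.1, 403 and 471 in knockdown cells, against 1306 and 1152 in control cells. Pearson's r of log2 values was 0.9928 to 0.9938 within groups and 0.9847 to 0.9867 between them. All intensities below are the authors' normalized values on a linear scale, from which background had been subtracted, so a dim probe can lie below 0. Differences are knockdown minus control of log2(intensity + 16). The added 16 makes changes of dim probes look smaller than they were. A percent of the control level is the same difference turned into a ratio on that scale.

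Lysosomal genes changed mostly downwards in the knockdown. The protease genes Ctsh and Lgmn, the sialidase gene Neu1 and the tetraspanin gene Cd63 were among those that fell, and Ctsf, another protease gene, was the single one that rose. A probe was tested if it exceeded its array's noise threshold, 20.1 to 20.2 intensity units, on at least 2 of the 5 arrays, and each gene was read at its brightest tested probe. Of the members, 33 passed this filter and none of them passed it through 1 group only, while Ctsk, Ctsl and Ctss had probes that did not pass. Of the 33 tested, 14 fell, 1 rose and 18 were not called at a limma adjusted p below 0.05. Those counts are 42.4% lower and 3.03% higher, beside 7.97% lower and 8.99% higher among all 9685 genes tested. At an unadjusted p below 0.05, 18 members were lower and 3 higher, beside 15.9% lower and 17.4% higher among all genes tested. The median difference was -0.39 over the tested members and 0.0047 over all genes tested. The knockdown arrays all lay below the control arrays for 20 of the 33 members and all above them for 3. Among all genes tested, the same held for 24.9% and 26.7%. Bulk arrays cannot tell fewer cells of a type from less RNA per cell.

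These counts varied with the arrays used. With 1 array left out, 12 members fell without knockdown replicate 1, 10 without knockdown replicate 2, 9 without knockdown replicate 3, 7 without control replicate 1 and 6 without control replicate 2. The calls over all genes, lower and higher together, shrank too. They numbered 1107, 1032, 882, 578 and 443 in the same order, and 1643 with every array. The 6 genes Ctsc, Ctsh, Ctsz, Lgmn, Neu1 and Cd63 were called in each of the 5 reduced fits. The matching count over all genes was not made. It cannot exceed 443 of the 9685 genes tested, the number called without control replicate 2. That is an upper limit, to be set beside 6 of the 33 tested members.

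**Figure D1:**
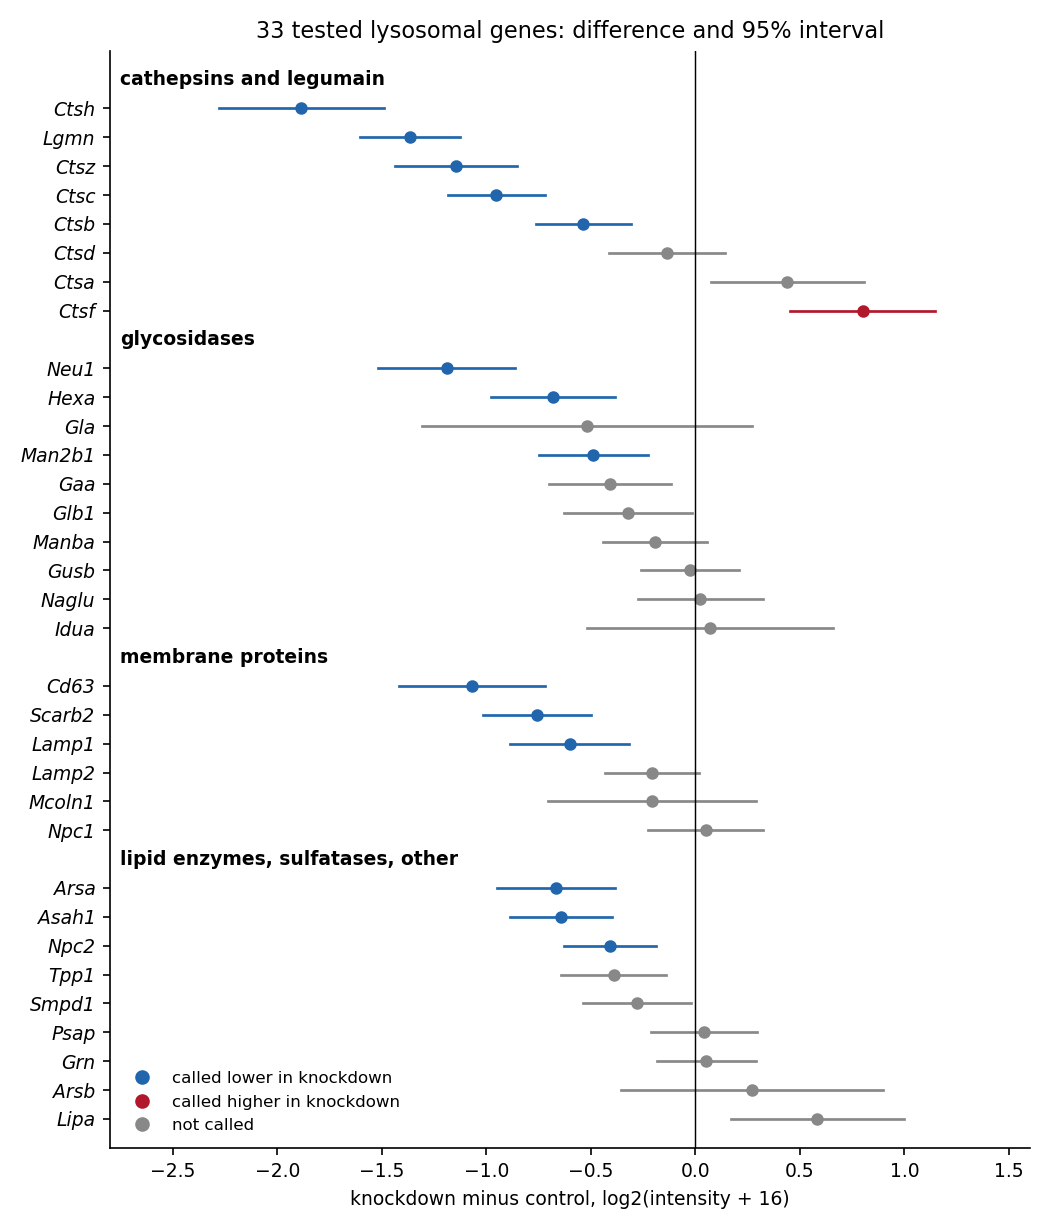
Difference in log2(intensity + 16), knockdown minus control, for the 33 tested lysosomal genes, 1 row a gene, grouped by role (points, fitted difference; lines, 95% interval from limma, 3 knockdown and 2 control arrays). The intervals of the 14 genes called lower (blue) lie left of 0, Ctsh lies farthest left at -1.88, and Ctsf is the gene called higher (red) at 0.80.

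Promoter sequence was set beside these values because lysosomal promoters are known for the E-box. RefSeq promoters (GRCm38.p6, 250 bases before to 50 after a start) were matched by symbol for 33 of the 37 members. Ctsb, Ctsh, Npc1 and Asah1 were not matched. The palindrome CACGTG was present in a promoter of 12 of the 33 matched members (36.4%), against 8.09% of 27025 genes. Its longer form TCACGTGA, which contains it, was present in 4 of the 33 (12.1%), against 1.12% of genes. A Sox motif, AACAAT or ATTGTT on the other strand, was present in 4 of the 33 (12.1%), against 12.2% of genes. Of matched members that fell, 3 of 11 had the E-box, and of those tested and not called, 7 of 17 had it. Ctsf, which rose, and Ctsl, which was not tested, also had it. The long form was in 0 of the 11 and in 4 of the 17. These calls are those of each gene's brightest probe. Ctsa, with the E-box, and Lamp2, without it, count as not called, though a dimmer probe of each fell. A match says only that these letters are in the window.

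The stretches below show the E-box in the 3 genes that fell and in 3 genes that were not called, with E-boxes and Sox motifs in capitals, read 5′ to 3′ on the gene's strand. The 3 not called are a choice from 7 and all carry the long form. Gla, not shown, also carries the long form, while Glb1, Gaa and Naglu, not shown, carry only the core. The first 3 are Lamp1 (chr8:13159085-13159166, plus strand), 1 of the starts of Lgmn (chr12:102439121-102439156, minus strand) and Arsa (chr15:89477420-89477455, minus strand). The others are 1 of the starts of Ctsa (chr2:164833744-164833798, plus strand), Ctsd (chr7:142387905-142388077, minus strand) and Mcoln1 (chr8:3500433-3500494, plus strand). Lamp1 has the core 4 times.
Lamp1: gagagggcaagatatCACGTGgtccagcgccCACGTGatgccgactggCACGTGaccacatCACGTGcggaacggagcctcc
Lgmn: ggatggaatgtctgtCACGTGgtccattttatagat
Arsa: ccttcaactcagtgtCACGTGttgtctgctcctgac
Ctsa: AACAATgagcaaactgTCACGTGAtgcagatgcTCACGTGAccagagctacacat
Ctsd: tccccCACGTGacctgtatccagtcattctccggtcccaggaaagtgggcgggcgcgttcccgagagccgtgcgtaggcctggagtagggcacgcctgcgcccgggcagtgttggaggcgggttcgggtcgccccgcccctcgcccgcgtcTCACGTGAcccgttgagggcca
Mcoln1: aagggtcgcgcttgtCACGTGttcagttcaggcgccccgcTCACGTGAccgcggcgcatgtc

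Among the proteases, 5 of 8 tested genes for cathepsins and legumain fell and 1 rose, and the median difference was -0.74. Over all genes tested, 7.97% fell and 8.99% rose. Ctsh, an aminopeptidase of the papain family, had intensities of 38.2, 55.0 and 54.6 in knockdown cells, against 203 and 245 in control cells. On the log2 scale it fell by 1.88 (SE 0.161, adjusted p = 0.0018 by limma), to 27.1% of the control level. That fall was the largest among the members and ranked 56 among the 772 genes that fell. Lgmn, legumain, which cuts after asparagine and activates other lysosomal proteases, had 7687, 7651 and 7005 in knockdown cells, against 19236 and 19146 in control cells. The replicates of each group lay close together and far from the other group. Lgmn fell by 1.37 (SE 0.0979, adjusted p = 0.0011), to 38.8% of the control level.

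Ctsz, a carboxypeptidase, had 678, 677 and 562 in knockdown cells, against 1429 and 1425 in control cells. It fell by 1.14 (SE 0.120, adjusted p = 0.0034). Its other tested probe, at 482 ± 13.8 (SD, n = 3) in knockdown cells and 1398 ± 10.3 (n = 2) in control cells, fell by 1.51 (adjusted p = 0.00081). Ctsc, the dipeptidyl peptidase that activates granule serine proteases, had 1476, 1379.9 and 1474 in knockdown cells, against 2754 and 2859 in control cells. It fell by 0.95 (SE 0.0951, adjusted p = 0.0029), to 51.7% of the control level. For both genes every knockdown array was below every control array, as was so for 24.9% of all genes.

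Ctsb, an abundant endopeptidase, had 7991, 7605 and 7489.7 in knockdown cells, against 11315 and 11005 in control cells. It fell by 0.54 (SE 0.0938, adjusted p = 0.016), to 69.0% of the control level. Ctsf, a papain-family protease, moved the other way. It had 222, 256 and 258 in knockdown cells, against 154 and 116 in control cells. It rose by 0.80 (SE 0.142, adjusted p = 0.017), to 174% of the control level. Both calls depended on single arrays. The call of Ctsb was lost without knockdown replicate 2 or 3 (adjusted p = 0.050 and 0.054) and without control replicate 1 or 2 (0.090 and 0.087). That of Ctsf was lost without knockdown replicate 2 or 3 (adjusted p = 0.054 and 0.056) and without control replicate 2 (0.092).

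The aspartic protease gene Ctsd had 940.4, 869 and 782 in knockdown cells, against 938 and 958 in control cells. The groups overlapped, and the difference was -0.14 (95% interval -0.41 to 0.14, adjusted p = 0.46). Ctsa encodes a serine carboxypeptidase that also protects Neu1 and beta-galactosidase in a complex. Its brightest probe had 395, 546 and 458 in knockdown cells, against 325 and 349 in control cells, a difference of 0.44 that was not called (adjusted p = 0.10).

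The remaining cathepsin genes had 1 probe each, and these probes were dim. A dim probe need not mean a dim gene, since Ctsc and Asah1 had dim probes beside bright ones. Ctsk, a protease known from osteoclasts, had 0.587, 5.93 and 32.4 in knockdown cells, against 6.68 and 11.9 in control cells. Ctsl had 9.37, 22.8 and 19.6 in knockdown cells, against 18.9 and 19.2 in control cells. Ctss, known from antigen-presenting cells, had values from -4.58 to 7.51 in knockdown cells, against -1.73 and 12.2 in control cells. At this signal no difference could be detected. Of the 8 placental cathepsin genes on a list of mouse-specific relatives, 0 passed the filter.

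**Figure D2:**
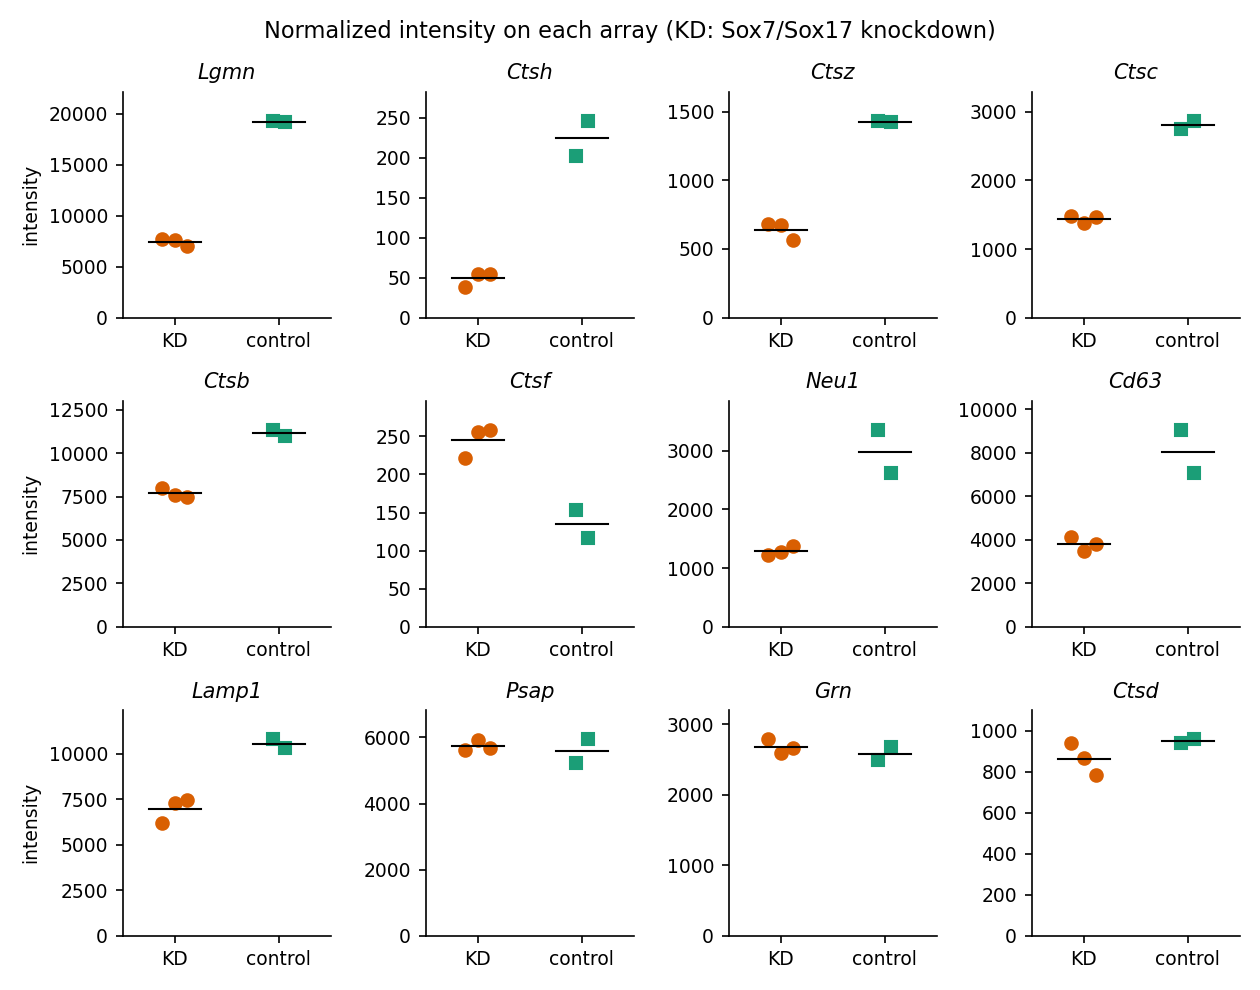
Normalized intensity (linear axis from 0) of 12 lysosomal genes at their brightest probe, with knockdown arrays as circles on the left, control arrays as squares on the right and lines at the group means. Lgmn sits between 7005 and 7687 in knockdown cells and at 19146 and 19236 in control cells, Ctsf is higher in the knockdown, and the groups overlap for Psap, Grn and Ctsd.

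The glycosidases trim sugars from glycoproteins, glycolipids and glycosaminoglycans. Of 10 tested genes of this class, 3 fell and 0 rose by limma, beside 7.97% and 8.99% of all genes. At an unadjusted p below 0.05, 5 were lower and 0 higher, beside the 15.9% and 17.4% of all genes. Neu1, the lysosomal sialidase, had 1229, 1280.4 and 1369 in knockdown cells, against 3349 and 2627 in control cells. The control arrays differed from each other more than the knockdown arrays did. All knockdown arrays were below both, as in 24.9% of all genes. Neu1 fell by 1.19 (SE 0.134, adjusted p = 0.0043), to 43.8% of the control level. Hexa, the alpha chain of beta-hexosaminidase, had 702, 857 and 761 in knockdown cells, against 1184 and 1309 in control cells. It fell by 0.68 (SE 0.122, adjusted p = 0.017). Man2b1, the lysosomal alpha-mannosidase, had 1949, 2048 and 2157 in knockdown cells, against 2707 and 3062 in control cells, and fell by 0.49 (SE 0.108, adjusted p = 0.033). The call of Hexa was lost without knockdown replicate 3 (adjusted p = 0.056) and without control replicate 1 or 2 (0.067 and 0.11). That of Man2b1 was lost without any 1 array (adjusted p from 0.065 to 0.18).

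The other glycosidase genes were not called. Gaa, the acid alpha-glucosidase that digests glycogen, averaged 1312 ± 135 (SD, n = 3) in knockdown cells and 1741 ± 6.94 (n = 2) in control cells, a difference of -0.41 (95% interval -0.70 to -0.12, adjusted p = 0.070). Glb1, beta-galactosidase, averaged 1755 ± 122 in knockdown cells and 2201 ± 293 in control cells, a difference of -0.32 (adjusted p = 0.14). Manba, beta-mannosidase, averaged 1020.3 ± 63.0 in knockdown cells and 1168 ± 45.8 in control cells, a difference of -0.19 (adjusted p = 0.25). For these 3 genes the knockdown arrays all lay below the control arrays, as they did for 24.9% of all genes. Gusb, beta-glucuronidase, differed by -0.024 (95% interval -0.26 to 0.21), and Naglu, an enzyme of heparan sulfate breakdown, by 0.023 (-0.27 to 0.32). Gla, alpha-galactosidase, and Idua, alpha-iduronidase, lay near the noise threshold. The Gla probe averaged 10.3 ± 10.9 in knockdown cells and 19.7 ± 3.33 in control cells, a difference of -0.52 that was not called (adjusted p = 0.33), and the Idua probe averaged 22.4 ± 10.3 in knockdown cells and 19.7 ± 2.90 in control cells.

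Of the 6 membrane protein genes, 3 fell and 0 rose by limma, with the same counts at an unadjusted p below 0.05. Over all genes tested, 7.97% fell and 8.99% rose, and at the unadjusted threshold 15.9% were lower and 17.4% higher. Cd63, a tetraspanin of late endosomes and lysosomes, had 4144, 3492 and 3782 in knockdown cells, against 9025 and 7069.6 in control cells. It fell by 1.07 (SE 0.144, adjusted p = 0.0076), to 47.6% of the control level. Scarb2, the receptor that carries beta-glucocerebrosidase to lysosomes, had 583, 553 and 617 in knockdown cells, against 948 and 1051 in control cells. It fell by 0.76 (SE 0.105, adjusted p = 0.0083). Lamp1, a heavily glycosylated protein of the lysosomal membrane, had 6206, 7268 and 7427 in knockdown cells, against 10778 and 10315 in control cells. It fell by 0.60 (SE 0.117, adjusted p = 0.022), to 65.9% of the control level. The call of Scarb2 was lost without control replicate 2 (adjusted p = 0.064). The call of Lamp1 was lost without knockdown replicate 2 (adjusted p = 0.052) and without control replicate 1 or 2 (0.12 and 0.10).

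Lamp2, the related protein needed for chaperone-mediated autophagy, had 2009, 1978 and 2074 in knockdown cells, against 2302 and 2373 in control cells at its brightest probe. The difference was -0.21 (95% interval -0.43 to 0.016, adjusted p = 0.18). Npc1, which exports cholesterol from the lysosome, had 529, 583 and 568 in knockdown cells, against 584 and 499.5 in control cells. The groups overlapped, with a difference of 0.050 (95% interval -0.22 to 0.32). Mcoln1, a calcium-permeable channel, had 167, 213 and 282 in knockdown cells, against 256 and 249 in control cells. Its knockdown arrays spread on both sides of the control arrays, and the difference was -0.21 (adjusted p = 0.53).

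Of 9 tested lipid enzymes, sulfatases and other soluble proteins, 3 fell and 0 rose by limma, beside 7.97% and 8.99% of all genes. At an unadjusted p below 0.05, 5 were lower and 1 higher, against 15.9% and 17.4% of all genes. Arsa, the sulfatase that acts on sulfatide, had 729, 851 and 780.2 in knockdown cells, against 1182 and 1335 in control cells, and fell by 0.67 (SE 0.116, adjusted p = 0.015). Asah1, acid ceramidase, had 9722, 10476 and 10855 in knockdown cells, against 16415 and 15883 in control cells, and fell by 0.64 (SE 0.0999, adjusted p = 0.011). Npc2, the soluble partner of Npc1 in cholesterol export, had 2714, 2649.8 and 2601 in knockdown cells, against 3526 and 3530.2 in control cells, and fell by 0.41 (SE 0.0911, adjusted p = 0.033). In all 3, as in 24.9% of all genes, the knockdown arrays lay below the control arrays. None of the 3 kept its call in every reduced fit. The call of Arsa was lost without knockdown replicate 3 or either control array (adjusted p = 0.052, 0.057 and 0.10). That of Asah1 was lost without control replicate 1 or 2 (adjusted p = 0.071 and 0.069), and that of Npc2 without any 1 array (adjusted p from 0.070 to 0.15).

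Several abundant members of this class showed little difference. Psap, the precursor of the saposins that help lipid hydrolases, had 5606, 5919 and 5670.2 in knockdown cells, against 5214 and 5941 in control cells. It differed by 0.042 (95% interval -0.21 to 0.30). Grn, the granulin precursor, had 2787, 2591 and 2660.5 in knockdown cells, against 2493 and 2676 in control cells. It differed by 0.052 (95% interval -0.19 to 0.29). The intervals of Psap and Grn do not reach the falls of Lgmn, Ctsh or Ctsz. Tpp1, a tripeptidyl peptidase, averaged 420.0 ± 11.4 in knockdown cells and 556 ± 50.1 in control cells (SD, n = 3 and n = 2). Its difference of -0.39 missed the threshold (adjusted p = 0.053). Lipa, the acid lipase, had 72.5, 83.7 and 106 in knockdown cells, against 46.1 and 59.4 in control cells. The knockdown arrays were all above the control arrays, as in 26.7% of all genes. The difference of 0.58 was not called (adjusted p = 0.068). Smpd1, acid sphingomyelinase, differed by -0.28 (adjusted p = 0.13), and Arsb, a sulfatase of dermatan sulfate breakdown near the noise threshold, by 0.27 (adjusted p = 0.52).

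The classes were set side by side by their counts and medians, which is a description and not a test. Of the tested genes for cathepsins and legumain, 62.5% fell, against 30.0% of glycosidases, 3 of 6 membrane proteins and 33.3% of the remaining soluble proteins. That order depended on the processing. With a gene's probes averaged, 4, 3, 4 and 4 genes of these classes fell. With an intensity trend in the variance, 5, 5, 3 and 4 fell. The median differences were -0.74, -0.36, -0.41 and -0.28 in the same order. Relative to the control mean, the median gene for cathepsins and legumain lay at -0.70, -0.78 and -0.75 on the 3 knockdown arrays. The median glycosidase gene lay at -0.36, -0.26 and -0.34, and the median membrane protein gene at -0.65, -0.39 and -0.34. The protease class also had the widest range, from -1.88 for Ctsh to 0.80 for Ctsf, while the glycosidases ran from -1.19 to 0.07 and the membrane proteins from -1.07 to 0.05. Leaving out 1 array lowered or kept each class count, while the count over all genes always shrank. Without knockdown replicate 1 the falls numbered 5, 2, 3 and 2 in the order above. Without knockdown replicate 2 they numbered 4, 2, 2 and 2. Without control replicate 2, 4 genes for cathepsins and legumain, 1 glycosidase, 1 membrane protein and 0 of the others fell. Without control replicate 1 these numbers were 4, 1, 2 and 0, and without knockdown replicate 3 they were 4, 1, 3 and 1. At an unadjusted p below 0.05, 5 genes for cathepsins and legumain, 3 glycosidases, 3 membrane proteins and 4 of the others were lower without control replicate 2. Without control replicate 1 those numbers were 5, 4, 3 and 3, and without knockdown replicate 3 they were 5, 5, 4 and 4.

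**Figure D3:**
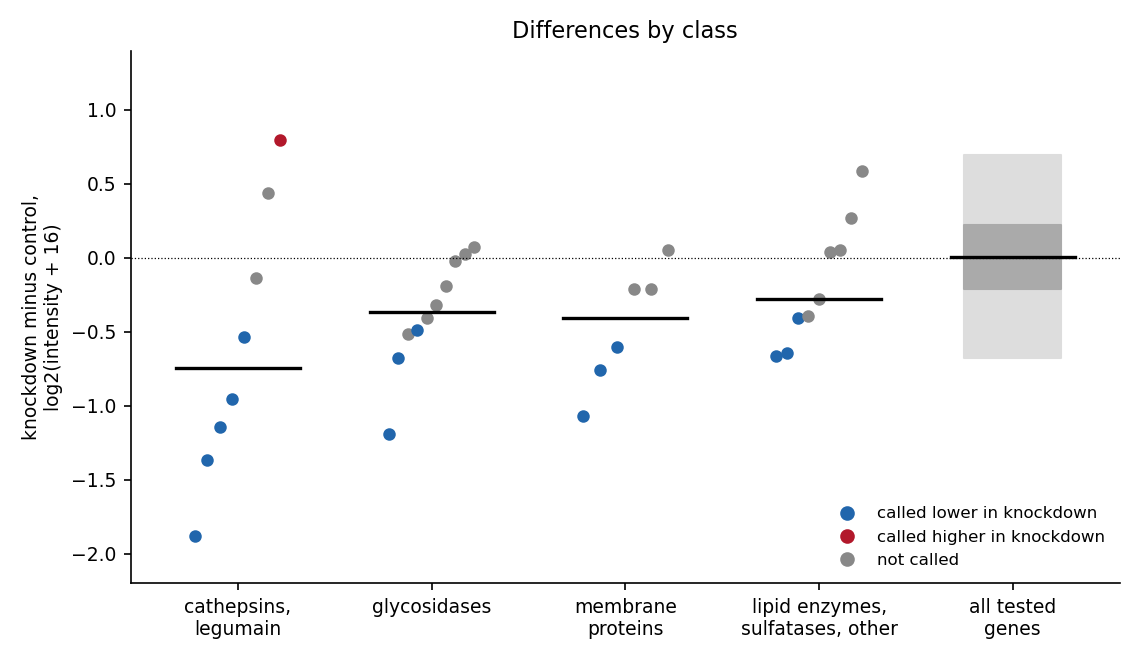
Difference in log2(intensity + 16), knockdown minus control, of each tested gene in 4 lysosomal classes (points, coloured by call; black bars, class medians), beside all 9685 genes tested (dark band, middle 50%; pale band, 5% to 95%). The medians of the 4 classes lie between -0.74 and -0.28, below the all-gene median of 0.0047, and the widest spread is among cathepsins and legumain.

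Different probes of a gene did not always move together. A total of 7 members had more than 1 tested probe. The largest disagreement was at Ctsa, whose dimmer probe had 158, 165 and 115 in knockdown cells, against 316 and 292 in control cells. That probe fell by 1.00 (SE 0.163, adjusted p = 0.013), while the brighter one differed by 0.44 in the other direction, and with the probes averaged Ctsa differed by -0.28 (adjusted p = 0.19). The call of the dimmer probe was lost when either control array was left out (adjusted p = 0.081 without replicate 1 and 0.073 without replicate 2). No direction is therefore given for Ctsa. It entered the counts and medians above at its brighter probe, among the members whose knockdown arrays all lay above the control arrays. At Lamp2 the dimmer probe had 468, 403 and 428 in knockdown cells, against 819.9 and 845 in control cells, and fell by 0.92 (SE 0.105, adjusted p = 0.0045), a call that held in each reduced fit. The brighter Lamp2 probe, given above, was not called. The array annotation lists both Lamp2 probes under the same RefSeq transcript.

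At Ctsb the order was reversed, with a fall at the bright probe and a difference of -0.028 (95% interval -0.33 to 0.28) at the dim one, which averaged 342 ± 29.5 in knockdown cells and 349 ± 42.9 in control cells. The second Asah1 probe averaged 1695 ± 155 in knockdown cells and 2178 ± 42.5 in control cells and differed by -0.36, which was not called (adjusted p = 0.083). Both Gusb probes and both Smpd1 probes were not called. The remaining probes that did not pass the filter were those of Ctsa, Ctsc, Idua, Npc1, Arsb and Asah1, each beside a tested probe of the same gene.

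**Figure D4:**
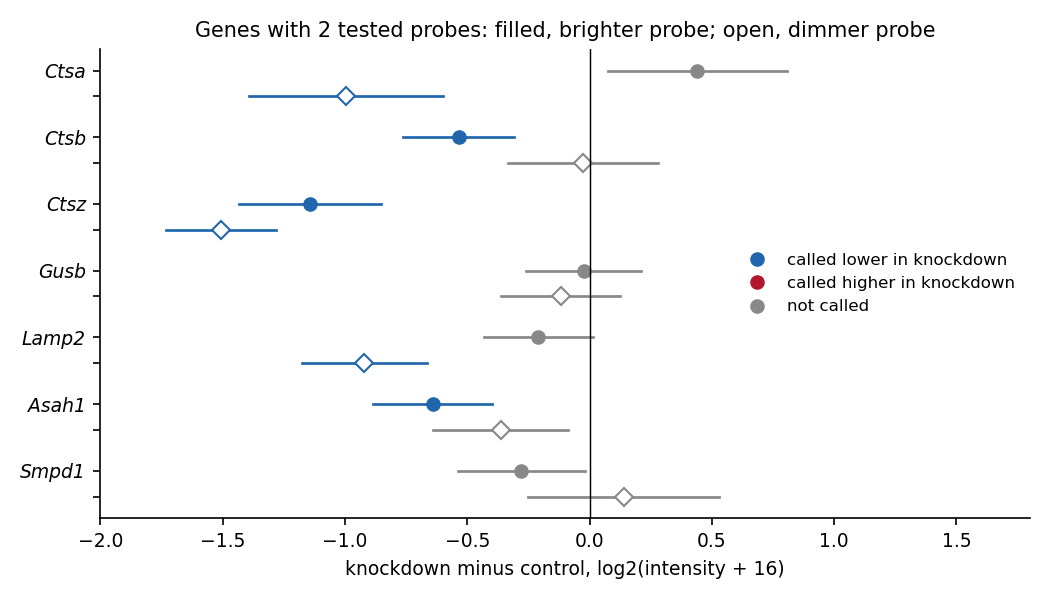
Difference in log2(intensity + 16), knockdown minus control, for the 7 lysosomal genes with 2 tested probes (filled circles, brighter probe; open diamonds, dimmer probe; lines, 95% interval). The Ctsz probes both fell, the Ctsa probes lie on opposite sides of 0, and at Lamp2 the dimmer probe lies at -0.92 and the brighter at -0.21.

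Among genes that supply or serve the lysosome, more fell than rose as well. Of 28 tested genes for other lysosomal enzymes and membrane proteins, 9 fell and 1, Atp13a2, rose, beside 7.97% and 8.99% of all genes. Ifi30, a thiol reductase of the endocytic pathway, averaged 1031 ± 77.7 in knockdown cells and 2571 ± 29.5 in control cells (SD, n = 3 and n = 2), and fell by 1.31 (SE 0.105, adjusted p = 0.0015). Slc17a5, the exporter of sialic acid, fell by 1.04 (adjusted p = 0.019), Clcn7, a chloride-proton exchanger, fell by 0.88 (adjusted p = 0.016) and Ctns, the cystine exporter, fell by 0.77 (adjusted p = 0.0065). With either control array left out, 2 genes of this list fell, Ifi30 and Ctns, and 0 rose. The calls of Slc17a5 and Clcn7 were lost there (adjusted p up to 0.12), and that of Clcn7 also without knockdown replicate 2 (adjusted p = 0.052).

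Of 15 tested V-ATPase genes, 6 fell and 0 rose by limma, beside 7.97% and 8.99% of all genes. At an unadjusted p below 0.05, 10 were lower and 1 higher, against 15.9% and 17.4% of all genes. Atp6v0a1, a membrane subunit, had 2930, 3287 and 2706 in knockdown cells, against 7763 and 7687 in control cells. It fell by 1.38 (SE 0.116, adjusted p = 0.0017), and its 2 dimmer probes fell by 1.25 and fell by 0.86 (the second not called without control replicate 2, adjusted p = 0.051). The gene that was higher at an unadjusted p below 0.05 was the subunit gene Atp6v0e2, whose brighter probe differed by 0.44 (adjusted p = 0.091). Its dimmer probe had 47.8, 76.7 and 66.7 in knockdown cells, against 25.2 and 16.8 in control cells, and rose by 1.10 (adjusted p = 0.015). That call was lost without knockdown replicate 3 (adjusted p = 0.053) and without control replicate 1 or 2 (0.052 and 0.10). Atp6ap1, an accessory subunit, fell by 0.71 (adjusted p = 0.0082), the subunit gene Atp6v0d1 fell by 0.60 (adjusted p = 0.012) and the proteolipid gene Atp6v0b fell by 0.53 (adjusted p = 0.027). Without either control array 1 subunit, Atp6v0a1, fell, while 3 fell without knockdown replicate 1 and 3 without knockdown replicate 3. The adjusted p of the calls lost there reached 0.14 for Atp6v0b, 0.076 for Atp6v0d1 and 0.063 for Atp6ap1.

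Of 9 genes of mannose 6-phosphate tagging and sorting, 4 fell and 0 rose by limma, beside 7.97% and 8.99% of all genes. At an unadjusted p below 0.05 the counts were 5 lower and 1 higher (15.9% and 17.4% over all genes). The 4 that fell were Gnptg and Gnptab, subunits of the enzyme that builds the tag, Igf2r, the large receptor for it, and Gga2, a sorting adaptor. Gnptg fell by 0.68 (adjusted p = 0.011), Gnptab fell by 0.59 (adjusted p = 0.046), Gga2 fell by 0.56 (adjusted p = 0.014) and Igf2r fell by 0.54 (adjusted p = 0.034). With either control array left out, 0 of these genes were called (adjusted p from 0.059 to 0.20). Leaving out knockdown replicate 2 or 3 left 2 calls, and the call of Igf2r was lost without any 1 array.

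Among 10 tested transcription regulators of lysosomal genes and their nutrient-sensing partners, 4 (Tfec, Tfe3, Flcn and Rragc) fell and 1 (Rraga) rose. The shares over all genes tested were 7.97% and 8.99%. Tfec, a relative of Tfeb, had 45.1, 13.3 and 11.5 in knockdown cells, against 195 and 196 in control cells. A single knockdown array was above the noise threshold, and Tfec fell by 2.53 (SE 0.346, adjusted p = 0.0080). Tfe3, another relative, had 445, 492 and 419 in knockdown cells, against 735 and 745 in control cells, and fell by 0.69 (SE 0.108, adjusted p = 0.011). The folliculin gene Flcn, a regulator of Tfe3, fell by 0.64 (adjusted p = 0.018), and Rraga, a Rag GTPase gene, rose by 0.78 (adjusted p = 0.025). The probes of Tfeb and Mitf did not pass the filter, with values below 0 on every array. With either control array left out, 0 of these regulators fell, with adjusted p of 0.054 and 0.060 for Tfec and 0.065 and 0.076 for Tfe3. Without knockdown replicate 2, 2 fell, and Flcn was not among them (adjusted p = 0.053). Rraga was called without control replicate 1 and lost its call without any other array (adjusted p from 0.056 to 0.11).

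Among cystatins and other inhibitors of cathepsins, 4 genes were tested and 1 fell, beside 7.97% of all genes. Cst3, cystatin C, a secreted inhibitor of papain-family cathepsins, had 4800, 5279 and 4607 in knockdown cells, against 12774 and 12450 in control cells. It fell by 1.36 (SE 0.104, adjusted p = 0.0013) and was called in each reduced fit. Cstb, the intracellular cystatin B, was not called (difference -0.28, adjusted p = 0.095).

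**Figure D5:**
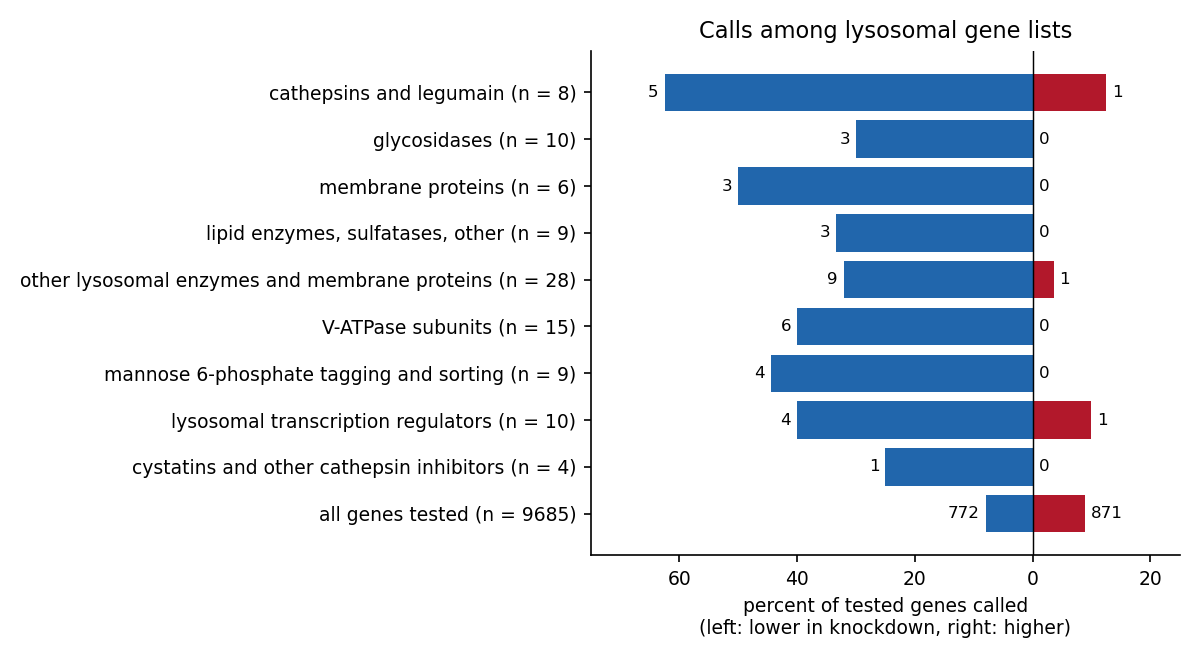
Percent of tested genes called lower (blue, to the left) and higher (red, to the right) in the knockdown for 9 lysosomal gene lists with tested genes and for all genes tested, with the number of tested genes in brackets and the number called at each bar's end. The lower share was lowest for cystatins and other inhibitors (1 of 4 genes), highest for cathepsins and legumain (62.5%), and 7.97% over all genes tested.

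Markers of other cell types were read on the same arrays. Of 8 macrophage markers with a probe, 7 were under the noise threshold on every array, among them Ptprc, Adgre1 and Lyz2. The summed intensity of the list was 17.5 to 44.6 in knockdown cells, against 27.4 to 40.4 in control cells. Of 6 osteoclast markers, 3 were under the threshold on every array, and the sum was 59.9 to 88.5 in knockdown cells, against 36.6 to 53.7 in control cells. Of 8 fibroblast markers, 5 (Col1a1, Col1a2, Col3a1, Lum and Postn) did not pass the filter, and 4 of them were under the threshold on every array. The summed intensity of the list was 273 to 323 in knockdown cells, against 136 to 156 in control cells. The 3 tested, Dcn, Pdgfrb and Thy1, all rose, beside 8.99% of all genes. With 1 array left out, 1 to 2 of these 3 markers were called higher, and 1 without knockdown replicate 2, knockdown replicate 3 or control replicate 2.

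Most tested markers of the endoderm state fell together with the lysosomal genes. The 8 parietal endoderm markers summed to 17794 to 20672 in knockdown cells, against 67175 to 68920 in control cells. All 7 tested fell, beside 7.97% of all genes, and Thbd did not pass the filter. The 7 visceral endoderm markers with a probe summed to 3728 to 4454 in knockdown cells, against 19332 to 20483 in control cells. Of the 6 tested, 5 fell, beside 7.97% of all genes. Apoa1 was tested and not called (difference -0.022), and Afp was under the threshold on every array. The 7 embryonal carcinoma markers with a probe were all above the threshold on some array. They summed to 27954 to 30757 in knockdown cells, against 22904 to 24637 in control cells. All 7 were tested, and 2 of them, Nanog and Tdgf1, rose, beside 8.99% of all genes. With a knockdown array left out 1 of the 7 was called, and with either control array left out 0 were called by limma. The part of these marker shifts in the lysosomal values was not tested.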

How the data were processed

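Biotinylated cRNA of 5 F9 samples was hybridised to Illumina arrays, per the labels' protocols. The deposited intensities, 1 per probe and array for 24613 probes, were linear and already normalized by the authors. Their normalization software is not named in the sources used here. Per array 29.1% to 29.2% of values lay below 0, and sorted values differed between arrays by at most 0.394, so background had been subtracted and the arrays brought to 1 distribution, which removes overall differences in RNA amount. A second deposited table was left out, because the headings of its 10 columns of signals and detection p-values match no sample's labels.

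Values below 0 were set to 0, 16 was added and log2 was taken. The noise threshold of an array was the 90% quantile of the sizes of its values below 0, and probes above it on at least 2 of 5 arrays were tested (13624 probes). The number of arrays limits the precision. Limma 3.58.1 in R 4.3.3 (lmFit, eBayes, 3 residual degrees of freedom) compared the groups over all arrays with no covariate, with Benjamini-Hochberg adjustment over all tested probes. The filter stands in for the detection p-values of the unused table. A permutation test of single values cannot go below p = 0.1 with 3 against 2 arrays.

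Probes were named from the platform annotation (20984 with 1 symbol, 1 with several, 3628 not listed), with symbols checked by gene identifier against RefSeq (GRCm38.p6). Paralogs can share a probe's signal. All members were accounted for, and of each pathway list at most 4 called genes with the largest differences were named, other genes being named after their values were seen. Members and lists were chosen with earlier results of these data known. The limma step was also tested on simulated data for knockdown against control (13624 probes drawn around the measured means, with 50 probes changed by each size). It called 24% of those changed 1.5-fold, 52% at 2-fold and 98% at 4-fold and 8-fold, besides 9 unchanged probes. Far fewer probes changed there than the 1643 genes called in the data. The adjustment depends on that share, so these percentages need not hold for the data. Alternatives changed the offset, filter, normalization, variance prior, choice of probe and arrays. Python 3.11.15, pandas 2.3.3 and matplotlib 3.10.9 served for tables and plots.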

Additional observations from a re-analysis of the deposited data

How the results depend on the processing

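The count of lysosomal members that fell, 14, lay between 13 and 17 under the alternatives with all arrays, apart from the replicate block and the fit without a filter. Testing all probes without a filter lowered it to 9 of 36 tested, with more probes in the adjustment (18 at an unadjusted p below 0.05). Over all genes the call count was 770 there, against 1643. The count that rose, 1, was 3 with an offset of 64 or with an intensity trend in the variance, 2 when probes had to exceed the noise threshold on all 5 arrays, and 0 by limma without a filter or with the replicate block (2 and 3 at an unadjusted p below 0.05). Leaving out 1 array gave 6 to 12 falls and 0 to 1 rises. The intensity trend called 2621 genes in all. The replicate number as a block left 10 falls and 828 called genes. Knockdown replicate 3 has no control array of its number, so the differences of the block fit came from the other arrays. Deviations of same-numbered arrays correlated at 0.0072 and 0.073, so the numbers are not treated as pairs, and the calls of Ctsb, Ctsf, Man2b1, Lamp1 and Npc2 were lost there. Without a filter, Ctsf, Hexa, Man2b1, Lamp1, Cd63 and Arsa lost theirs. An offset of 1 ended the call of Man2b1, and averaging probes that of Ctsb, while Lamp2 and Tpp1 were then called lower. Averaging turned Ctsa to -0.28. Idua was -0.0925 with the block. None of the values that changed sign was called. Leave-one-out values ranged from -0.0822 to 0.0335 for Gusb, -0.0925 to 0.31 for Idua, -0.0429 to 0.11 for Naglu, -0.0594 to 0.16 for Npc1 and -0.0519 to 0.14 for Psap. Dim probes, such as those of Gla, Idua, Ctsk, Ctsl and Ctss, limit what can be seen. The cause of the other shifts was not tested.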
